A study of Mus musculus with 15 samples.

Results

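The genes described here are 105 genes, measured by 110 transcript clusters, whose signal was moderately higher in every Klf3-deficient array than in every Klf3-intact array of TER119+ fetal liver cells. A transcript cluster is the set of probes that the array's annotation assigns to 1 transcription unit. Of 21789 clusters with 1 gene symbol, standing for 19938 genes, those were taken whose lowest value in 7 Klf3-deficient arrays exceeded the highest in 8 Klf3-intact arrays. The mean of the 7 arrays also had to exceed the mean of the 8 by at least 0.6 on the log2 scale. Both limits were met by 126 clusters (0.578% of the 21789), and the 16 of these that belong to a list of 19 left-out genes, most of them with larger differences, were set aside. The mirrored limits in the other direction were met by 30 clusters (0.138%). The higher signal in Klf3-deficient arrays is therefore how the genes were chosen, is given below as a description, and was not tested.

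RNA came from magnetically purified TER119+ cells, which are maturing erythroid cells, of FVB/NJ mouse fetal liver at E13.5 (embryonic day), with 1 array per sample. The Klf3-deficient arrays comprised 4 with the genotype given as Klf3-/- Klf8gt/gt (DKO) and 3 with the genotype given as Klf3-/- (Klf3KO). The Klf3-intact arrays comprised 4 with the genotype given as Klf8gt/gt (Klf8gt) and 4 wild-type arrays (WT). In these names gt is the label of the altered Klf8 allele, and the number of altered copies in each array was not checked. Values are log2 signals as the authors deposited them, with array medians between 6.28 and 6.41, so that 1 unit is a doubling of signal, and no fold is given where a group mean lies below these medians. Correlations between arrays over all clusters lay between 0.974 and 0.992. The labels do not say that each array is a separate embryo, so the p-values below cover only the spread among these 15 samples, some of which may be technical.

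KLF3 is a zinc finger protein of the Kruppel-like family that occupies CACCC-type sites in DNA and silences genes through the corepressor CtBP. KLF8 is a close relative that represses in the same way, and in red cell precursors both genes are switched on by the activator KLF1, which binds similar sites. Derepression of a gene means that it is higher when such a repressor is missing.

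The Klf3 cluster does not check the labels. Its signal was 11.37 ± 0.28 in DKO and 11.32 ± 0.14 in Klf3KO, against 10.27 ± 0.04 in Klf8gt and 10.27 ± 0.17 in WT arrays (SD, n = 4, 3, 4 and 4), and the position of its probes relative to the deleted segment is not stated. The Klf8 signal was 7.29 ± 0.55 in DKO, 8.71 ± 0.26 in Klf3KO, 5.39 ± 0.09 in Klf8gt and 5.36 ± 0.18 in WT arrays. DKO, Klf3KO, Klf8gt and WT therefore mean arrays so labelled. Erythroid markers of the label were bright, with 12 measured genes of a 15-gene list averaging 11.9 to 12.51 over the arrays, but 9 measured hepatocyte genes were as bright, at 11.61 to 13.27. By their Y-linked and Xist signals, DKO held 2 males and 2 females, Klf3KO 1 male and 2 females, Klf8gt 2 males and 2 females, and WT 4 males.

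Promoters of these genes are shown first, since KLF proteins act at such sequences. RefSeq promoter windows on GRCm38.p6, from 250 bases before to 50 bases after a transcript start, were at hand for 84 of the 105 genes. The stretches below come from the 7 genes that hold the extended CACCC box, CCACACCC on either strand, in the 250 bases before a start. They read 5′ to 3′ on the gene's strand, with the box, or its reverse complement GGGTGTGG, in capitals.
Gng2, chr14:19976724-19976803, minus strand: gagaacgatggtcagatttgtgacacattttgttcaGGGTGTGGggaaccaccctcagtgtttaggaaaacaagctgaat
Cd59a, chr2:104095741-104095800, plus strand: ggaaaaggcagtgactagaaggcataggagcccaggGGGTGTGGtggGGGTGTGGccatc
Acp5, chr9:22135747-22135859, minus strand: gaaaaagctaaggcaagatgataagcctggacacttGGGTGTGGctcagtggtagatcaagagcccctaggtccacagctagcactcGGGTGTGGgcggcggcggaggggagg
Dennd2d, chr3:106485939-106486018, plus strand: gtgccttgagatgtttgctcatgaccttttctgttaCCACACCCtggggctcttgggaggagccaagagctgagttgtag
Lilra6, chr7:3915513-3915592, minus strand: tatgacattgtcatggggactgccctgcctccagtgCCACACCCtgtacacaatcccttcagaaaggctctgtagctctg
Sgcb, chr5:73647860-73647939, minus strand: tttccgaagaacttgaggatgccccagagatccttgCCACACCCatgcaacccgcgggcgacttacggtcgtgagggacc
Syt2, chr1:134709094-134709173, plus strand: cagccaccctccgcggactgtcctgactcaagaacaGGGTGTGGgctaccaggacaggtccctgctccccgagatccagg
The Cd59a and Acp5 windows hold 2 boxes each. Those of Cd59a begin 24 and 13 bases before the start, and those of Acp5 begin 77 and 26 bases before it.

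Counted over promoter windows, the extended box was in 8 of 115 windows of these genes (6.96%), against 3.74% of the 19116 windows of all measured genes. The looser KLF consensus CCNCNCCC, of which the extended box is a special case, was in 75.7% of their windows, against 59.6% of all windows. In the 250 bases before the start alone it was in 69.6% of their windows, against 55.9% of all. The core CACCC, which overlaps both motifs, was in 72.2% of their windows, against 61.0% of all. Motifs of the GATA type, bound by the erythroid regulator GATA1, had shares near or below those of all windows, with AGATAA in 8.7% of their windows, against 9.24% of all, and TGATAA in 4.35%, against 6.69%. Over the 250 bases before the start alone, AGATAA was in 8.7%, against 8.44%, and TGATAA in 4.35%, against 6.07%. Both strands were searched for each motif. The windows of these genes had a median GC content of 60.0%, against 57.7% of all windows, and KLF motifs are themselves rich in C and G. Split by GC content, CCNCNCCC was in 47.4% of 19 windows below 50% GC, against 21.2% of all such windows. Its share was 63.2% of 38 windows between 50% and 60%, against 58.0%, 97.1% of 34 windows between 60% and 70%, against 80.3%, and 87.5% of 24 windows from 70% up, against 92.1%. Genes with several starts count several times in these shares. Counted once per gene, AGATAA was in 11.9% of the 84 genes, against 10.8% of all genes, and TGATAA in 5.95%, against 7.92%. By the same count CCNCNCCC was in 83.3%, against 62.4%. No test was made.

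**Figure D1:**
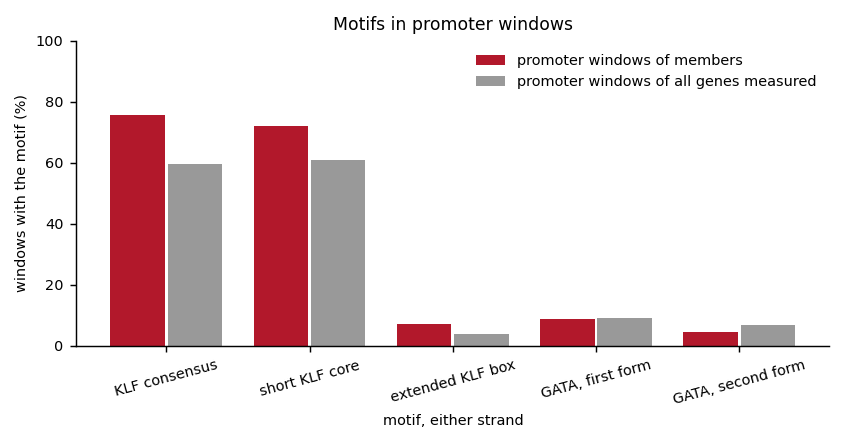
Share of promoter windows (%) holding each of 5 motifs on either strand, in windows of the members (red) and of all measured genes (grey). The first 3 pairs of bars are CCNCNCCC (75.7% against 59.6%), CACCC (72.2% against 61.0%) and CCACACCC (6.96% against 3.74%), and the last 2 are AGATAA and TGATAA, which stood below their share in all windows.

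The 110 clusters had a median difference of 0.99 between Klf3-deficient and Klf3-intact arrays, against -0.01 for all clusters with 1 symbol and 2.43 (range 1.08 to 4.10) for the 16 left-out clusters. Of the 110, 54 differed by 1 or more and 5 by 2 or more. The gap between the lowest Klf3-deficient and the highest Klf3-intact array ranged from 0.001 (Zfp62) to 1.66 (Hydin), with a median of 0.29, and was under 0.1 for 24 clusters. Just inside the size limit lay Adap1 at 0.609, Pik3c2b at 0.627 and Itgb1bp1 at 0.63, and just outside it Uck2 at 0.594, Zfp639 at 0.588 and Gpat2 at 0.581. Expression in Klf3-intact cells was mostly not absent: the median signal of the 110 clusters there was 7.93, against 6.73 for all clusters with 1 symbol. The mean signal in Klf3-intact arrays lay below all array medians for 20 of the 110 (18.2%), against 43.3% of all clusters with 1 symbol, and 4 of the 20 also lay below them in Klf3-deficient arrays. Signals of these genes ranged in Klf3-intact arrays from a mean of 3.91 for Smim9 to one of 11.07 for Tmsb10. The samples are bulk RNA, so a larger share of cells with a transcript and more transcript per cell cannot be told apart.

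**Figure D2:**
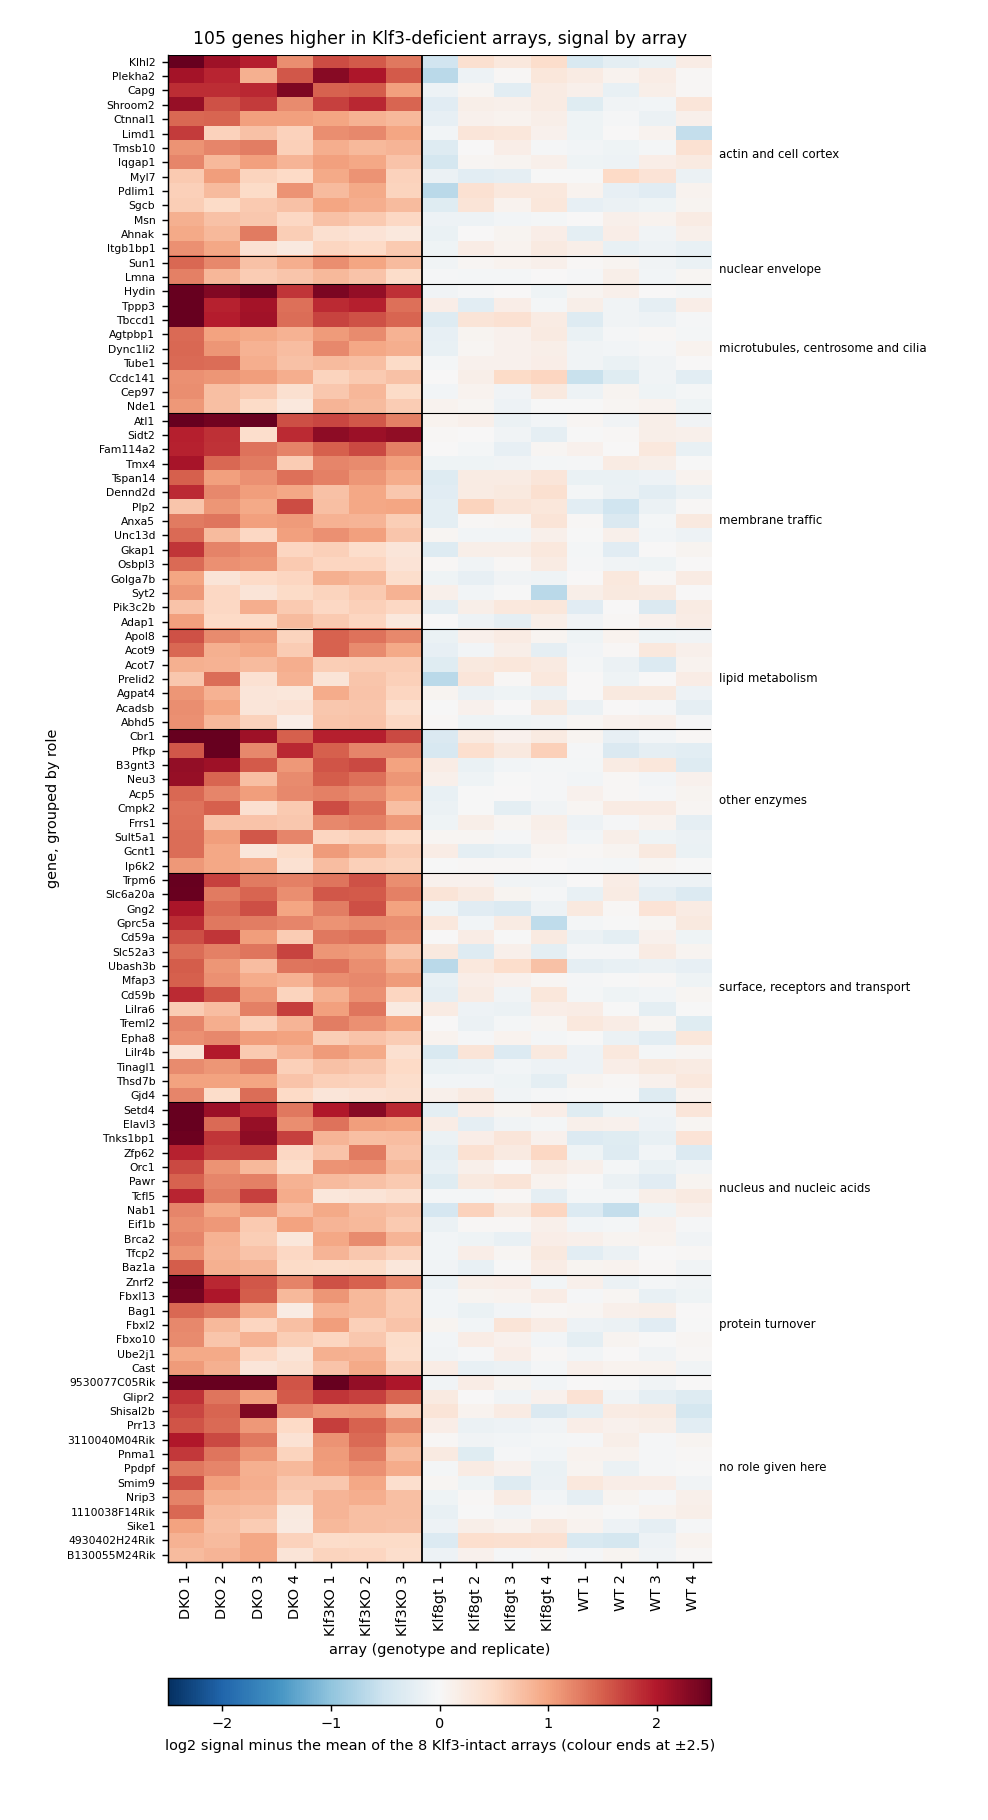
Log2 signal of the 105 genes (down the page, grouped by role) in the 15 arrays (across), minus each gene's mean over the 8 Klf3-intact arrays, with colour ending at 2.5 in either direction. The 7 columns on the left are Klf3-deficient and red throughout by the choice of genes, and DKO 1 is the darkest column in 72 of the 105 genes.

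Genes are described by the known role of their products, assigned by hand and without the share of such roles among all genes. Of the 105 genes, 14 encode proteins of the actin skeleton and cell cortex, 9 belong to microtubules, centrosomes or cilia, and 2 to the nuclear envelope. Klhl2, a Kelch-family adaptor that binds actin, had signals of 10.12, 9.28, 9.11 and 8.33 in DKO and 8.79, 8.69 and 8.48 in Klf3KO, against 6.69, 7.56, 7.42 and 7.59 in Klf8gt and 6.77, 6.91, 7.0 and 7.35 in WT arrays. Its difference of 1.81 is a 3.5-fold higher signal, and the lowest Klf3-deficient array, DKO 4, stood 0.737 above the highest Klf3-intact one. Plekha2, a lipid-binding adaptor of the plasma membrane, had 10.09, 9.91, 8.89 and 9.56 in DKO and 10.29, 10.04 and 9.55 in Klf3KO, against 7.34, 7.89, 8.04 and 8.3 in Klf8gt and 8.21, 8.1, 8.19 and 8.03 in WT arrays. The Klf3KO and DKO arrays overlapped for this gene. Capg, which caps the fast-growing ends of actin filaments, had 9.18, 9.18, 9.22 and 9.67 in DKO and 8.81, 8.85 and 8.36 in Klf3KO, against 7.2, 7.38, 7.07 and 7.53 in Klf8gt and 7.46, 7.15, 7.47 and 7.35 in WT arrays. Here all 4 DKO arrays lay above all 3 Klf3KO arrays.

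Shroom2, an actin-binding protein of epithelial cortex, averaged 8.85 ± 0.41 in DKO and 8.86 ± 0.22 in Klf3KO, against 7.23 ± 0.23 in Klf8gt and 7.14 ± 0.25 in WT arrays (SD, n = 4, 3, 4 and 4, as in the group means that follow). Tmsb10, the actin-monomer-binding thymosin beta 10, was among the brightest of all 105 genes, with 12.12 ± 0.31 in DKO and 11.93 ± 0.05 in Klf3KO, against 11.03 ± 0.21 in Klf8gt and 11.11 ± 0.23 in WT arrays. Msn, which encodes moesin and links actin to membrane proteins, averaged 11.75 ± 0.15 in DKO and 11.68 ± 0.12 in Klf3KO, against 10.95 ± 0.04 in Klf8gt and 11.14 ± 0.08 in WT arrays. The higher signal was 3.18-fold for Shroom2, 1.96-fold for Tmsb10 and 1.59-fold for Msn. The scaffold Iqgap1 differed by 0.95, the catenin relative Ctnnal1 by 1.09, the LIM proteins Limd1 by 0.99 and Pdlim1 by 0.76, the myosin light chain Myl7 by 0.76, the sarcoglycan Sgcb by 0.74, the giant cortical protein Ahnak by 0.66 and the integrin-binding Itgb1bp1 by 0.63. Both genes of the nuclear envelope were well expressed. Sun1, which tethers the nucleus to the cytoskeleton, averaged 9.68 ± 0.31 in DKO and 9.59 ± 0.19 in Klf3KO, against 8.65 ± 0.09 in Klf8gt and 8.56 ± 0.11 in WT arrays. Lmna, which encodes lamins A and C, averaged 10.40 ± 0.27 in DKO and 10.22 ± 0.19 in Klf3KO, against 9.52 ± 0.03 in Klf8gt and 9.57 ± 0.10 in WT arrays.

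Among genes of microtubules and cilia, Hydin, a component of motile cilia, had signals of 8.85, 8.06, 8.19 and 7.54 in DKO and 8.1, 7.94 and 7.58 in Klf3KO, against 5.67, 5.73, 5.75 and 5.65 in Klf8gt and 5.82, 5.88, 5.75 and 5.71 in WT arrays. All 8 Klf3-intact values lay below the array medians and close together, and all 7 Klf3-deficient values lay well above them. Tppp3, a tubulin-polymerising protein, had 9.03, 8.24, 8.39 and 7.69 in DKO and 8.17, 8.26 and 7.69 in Klf3KO, against 6.47, 6.05, 6.47 and 6.26 in Klf8gt and 6.45, 6.22, 6.08 and 6.48 in WT arrays. Tbccd1, a centrosomal relative of a tubulin cofactor, was already bright in Klf3-intact cells, with 11.32, 10.63, 10.76 and 10.06 in DKO and 10.35, 10.27 and 10.12 in Klf3KO, against 8.34, 8.99, 9.06 and 8.88 in Klf8gt and 8.35, 8.58, 8.55 and 8.64 in WT arrays. The Klf3-intact values of Tppp3 lay around the array medians. All 7 Klf3-deficient values of Tbccd1 exceeded 10, and the mean signal was 3.55-fold higher. Agtpbp1, an enzyme that trims tubulin tails, differed by 1.05, the dynein chain Dync1li2 by 1.03, epsilon-tubulin Tube1 by 0.93, Ccdc141 by 0.88, the centrosomal Cep97 by 0.71 and the dynein regulator Nde1 by 0.69.

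**Figure D3:**
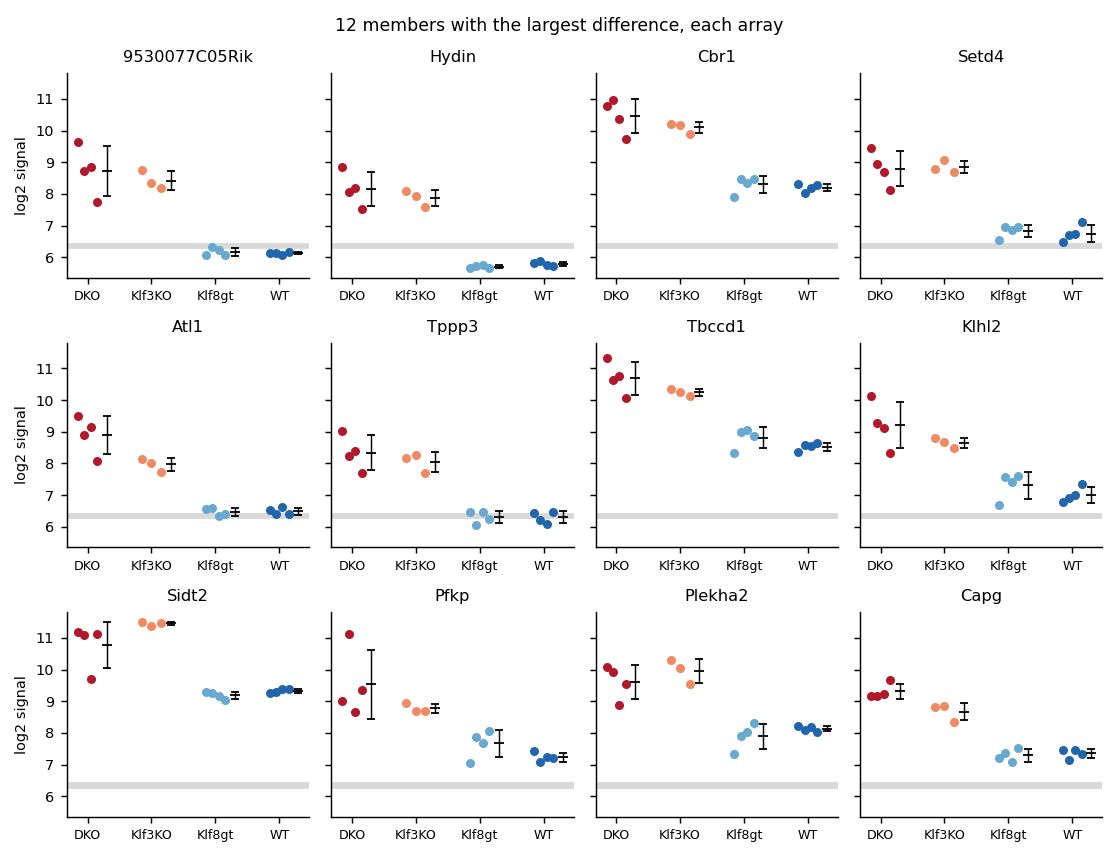
Log2 signal of the 12 genes with the largest difference in each array of DKO, Klf3KO, Klf8gt and WT, with the mean and SD beside each group and the range of array medians (6.28 to 6.41) as a grey band. The Klf3-intact values of Hydin lie under the band, those of 9530077C05Rik on or just under it and those of Tppp3 around it, while those of Cbr1, Tbccd1, Sidt2 and Plekha2 lie well above it.

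Genes of membrane traffic numbered 15. Atl1, the membrane-fusing GTPase atlastin of the endoplasmic reticulum, had signals of 9.51, 8.89, 9.14 and 8.09 in DKO and 8.15, 8.03 and 7.74 in Klf3KO, against 6.57, 6.6, 6.33 and 6.42 in Klf8gt and 6.52, 6.4, 6.63 and 6.4 in WT arrays. The mean was 4.06-fold higher in Klf3-deficient arrays, and 3 of 4 DKO arrays lay above all Klf3KO arrays. Sidt2, a lysosomal membrane protein, had 11.2, 11.09, 9.69 and 11.12 in DKO and 11.5, 11.39 and 11.48 in Klf3KO, against 9.28, 9.26, 9.17 and 9.04 in Klf8gt and 9.25, 9.29, 9.4 and 9.38 in WT arrays. All its Klf3-deficient arrays but DKO 3 exceeded 11. Fam114a2 differed by 1.53, the thioredoxin-like Tmx4 by 1.27, the tetraspanin Tspan14 by 1.18, the Rab regulator Dennd2d by 1.07, the proteolipid Plp2 by 1.01 and annexin A5 (Anxa5) by 1.0. The exocytosis factor Unc13d differed by 0.95, Gkap1 by 0.87, the oxysterol-binding relative Osbpl3 by 0.82 and the synaptic vesicle calcium sensor Syt2 and the palmitoyltransferase partner Golga7b by 0.64 each. Pik3c2b, a class II phosphoinositide kinase, and Adap1, an Arf GTPase-activating protein, were the lowest of the group.

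Enzymes formed a further group. Cbr1, a carbonyl reductase, and Pfkp, the platelet form of the glycolytic enzyme phosphofructokinase, led the 10 enzymes of mixed function. Cbr1 had signals of 10.76, 10.96, 10.37 and 9.74 in DKO and 10.2, 10.19 and 9.9 in Klf3KO, against 7.89, 8.48, 8.35 and 8.48 in Klf8gt and 8.31, 8.04, 8.18 and 8.27 in WT arrays, a 4.14-fold difference of means. Pfkp had 9.01, 11.12, 8.67 and 9.35 in DKO and 8.95, 8.69 and 8.68 in Klf3KO, against 7.06, 7.88, 7.7 and 8.05 in Klf8gt and 7.43, 7.09, 7.24 and 7.2 in WT arrays. For Pfkp the array DKO 2 stood above the other 6 Klf3-deficient arrays. Genes of sugar chains were B3gnt3, an N-acetylglucosaminyltransferase (difference 1.6), Gcnt1, which branches O-linked chains (0.81), and Neu3, a membrane sialidase (1.37). Acp5, tartrate-resistant acid phosphatase, was bright in all groups, with 11.66 ± 0.16 in DKO and 11.57 ± 0.15 in Klf3KO, against 10.38 ± 0.08 in Klf8gt and 10.47 ± 0.05 in WT arrays. The ferric reductase relative Frrs1 differed by 1.0, the nucleotide kinase Cmpk2 by 1.1, the inositol phosphate kinase Ip6k2 by 0.76 and the sulfotransferase Sult5a1 by 0.98.

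The 7 genes of lipid metabolism had smaller differences, with a median of 0.70. Apol8, an apolipoprotein L, averaged 11.64 ± 0.43 in DKO and 11.88 ± 0.14 in Klf3KO, against 10.60 ± 0.16 in Klf8gt and 10.49 ± 0.09 in WT arrays. The acyl-CoA thioesterases Acot9 and Acot7 differed by 1.08 and 0.76. Prelid2 differed by 0.7, the acyltransferase Agpat4 by 0.67, and both Abhd5, the co-activator of fat lipase, and Acadsb, an acyl-CoA dehydrogenase, by 0.66.

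Surface proteins, receptors and transporters were the largest group, with 16 genes and a median difference of 1.1. Cd59a and Cd59b encode the GPI-anchored protein that stops the complement membrane attack complex on red cells. Cd59a averaged 11.68 ± 0.53 in DKO and 11.68 ± 0.14 in Klf3KO, against 10.51 ± 0.12 in Klf8gt and 10.31 ± 0.15 in WT arrays. Cd59b was dimmer, at 8.06 ± 0.58 in DKO and 7.64 ± 0.30 in Klf3KO, against 6.83 ± 0.24 in Klf8gt and 6.75 ± 0.07 in WT arrays, and the paralogs are similar enough that probes may share signal. The magnesium channel Trpm6 differed by 1.56, the amino acid transporter Slc6a20a by 1.53, the G protein subunit Gng2 by 1.42, the orphan receptor Gprc5a by 1.31, the riboflavin transporter Slc52a3 by 1.22, the phosphatase Ubash3b by 1.16 and Mfap3 by 1.12. The immune-type receptors Treml2, Lilr4b and Lilra6 differed by 0.99, 0.89 and 1.0, but only Treml2 was bright, with 10.09 ± 0.26 in DKO and 10.33 ± 0.15 in Klf3KO, against 9.16 ± 0.09 in Klf8gt and 9.24 ± 0.25 in WT arrays. Mean signals of Lilra6 were below the array medians in all groups, as were those of the connexin Gjd4. The ephrin receptor Epha8 differed by 0.91, the matrix protein Tinagl1 by 0.86 and Thsd7b by 0.76.

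Nuclear genes numbered 12. Setd4, a SET-domain methyltransferase, had signals of 9.44, 8.94, 8.69 and 8.12 in DKO and 8.8, 9.07 and 8.69 in Klf3KO, against 6.56, 6.97, 6.86 and 6.97 in Klf8gt and 6.49, 6.69, 6.72 and 7.1 in WT arrays. The difference of 2.02 is a 4.07-fold higher signal, with the DKO and Klf3KO arrays interleaved. The transcription factor Tfcp2 differed by 0.75, the EGR corepressor Nab1 by 0.93, the zinc finger gene Zfp62 by 1.22, the chromatin remodelling subunit Baz1a by 0.7, the origin recognition subunit Orc1 by 1.03 and Brca2, a DNA repair gene, by 0.86. The neuronal RNA-binding protein Elavl3 differed by 1.53, the translation factor relative Eif1b by 0.89, the pro-apoptotic regulator Pawr by 1.0, Tnks1bp1, a tankyrase-binding protein, by 1.51 and the transcription factor Tcfl5 by 0.97. Protein turnover was represented by 7 genes, with the ubiquitin ligase Znrf2 highest at 1.64, the F-box proteins Fbxl13 at 1.33, Fbxl2 at 0.81 and Fbxo10 at 0.71, the co-chaperone Bag1 at 0.88, the ubiquitin-conjugating enzyme Ube2j1 at 0.71 and calpastatin, Cast, at 0.7.

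The remaining 13 genes have no role given here. Among them 9530077C05Rik had the largest difference of all 105, at 2.45. Its signals were 9.65, 8.72, 8.84 and 7.73 in DKO and 8.74, 8.34 and 8.18 in Klf3KO, against 6.06, 6.34, 6.22 and 6.08 in Klf8gt and 6.15, 6.14, 6.07 and 6.16 in WT arrays. The Klf3-intact arrays lay on or below the array medians, and the lowest Klf3-deficient array was 1.39 above the highest of them. Prr13, Ppdpf and Glipr2 were expressed in all groups, with differences of 1.29, 1.05 and 1.52. Shisal2b differed by 1.37, 3110040M04Rik by 1.26, Pnma1 by 1.13, Smim9 by 0.91, Nrip3 by 0.88, 1110038F14Rik by 0.79, Sike1 by 0.7, 4930402H24Rik by 0.66 and B130055M24Rik by 0.64.

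Some genes were measured by several clusters. The 3 clusters of Plp2, and the 2 each of Tmsb10, Pdlim1 and 3110040M04Rik, tracked each other over the 15 arrays with correlations of 0.968 to 0.998, and whether their probes detect the gene or a near-identical copy is uncertain. Other genes were less uniform. Ccdc141 had 4 further clusters with differences of 0.78, 0.49, 0.39 and 0.51, and Gkap1 had 1 with 0.57, and in each of these the groups overlapped.

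Whether the genes also respond to the Klf8 allele while KLF3 is present was tested between Klf8gt and WT arrays. The choice of genes used the mean of these 8 arrays and not their difference, but its limit on the highest of them left out genes with a high array in either group, so the spread of this contrast is limited by the choice. Every adjusted p here is from limma, two-sided, adjusted by Benjamini-Hochberg over 23410 clusters. None of the 110 clusters passed the threshold of 0.05, as none of the 23410 did (0.0%). At an unadjusted p under 0.05 there were 10 (9.09%), 6 higher and 4 lower in Klf8gt, against 13.4% of all tested clusters, 7.16% higher and 6.23% lower. A difference above 0 was found in 65 (59.1%), against 46.2% of all. Their median difference was 0.05, against -0.02 for all, with a range of -0.42 to 0.60 and a median standard error of 0.16. With a term for sex this median was 0.11, where WT held 4 males and Klf8gt 2 males and 2 females. Some marker lists of other cells had larger median differences in this contrast, 0.63 for 9 measured hepatocyte genes (array means 12.64 to 13.27 in Klf8gt, against 12.32 to 12.67 in WT) and 0.57 for 8 measured megakaryocyte genes (8.88 to 10.58 in Klf8gt, against 9.23 to 9.5 in WT). In the other direction, the median was -0.38 for 15 macrophage genes and -0.25 for 12 granulocyte and myeloid genes. The remaining cell type lists lay between -0.13 (erythroid) and 0.06 (endothelium). None of these markers passed the test, none was among the 105 genes, and their part in the values here was not tested. The smallest p-values belonged to Ccdc141, 4930402H24Rik and Thsd7b. Ccdc141 had signals of 5.83, 5.97, 6.3 and 6.36 in Klf8gt, against 5.26, 5.51, 5.73 and 5.56 in WT arrays, a difference of 0.60 ± 0.12 (SE, limma adjusted p = 0.211). Its 4 Klf8gt arrays all lay above the 4 WT arrays, but no value of either group exceeded the highest array median, 6.41. The Klf8gt values of 6.3 and 6.36 lay within the range of array medians. For 4930402H24Rik the difference was 0.44 ± 0.16 (SE, limma adjusted p = 0.292), and for Thsd7b it was -0.23 ± 0.09 (SE, limma adjusted p = 0.295). Without Klf8gt 1, whose profile stood apart from the other Klf8gt arrays, 7 of the 110 clusters passed, all higher in Klf8gt (6.36%, against 7.19% of all tested clusters in that fit): those of Ccdc141, 4930402H24Rik, Nab1, Acot7 and Ubash3b and 2 of Plp2, with differences of 0.36 to 0.70.

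The contrast of DKO with Klf3KO arrays asks whether the Klf8 allele moves the genes further once KLF3 is missing. The choice of genes used the mean of both groups and not their difference. It also required each DKO and Klf3KO array to exceed every Klf3-intact array, so the spread of this contrast is limited by the choice. The shares over all tested clusters carry no such limit. Since arrays of DKO spread more than those of Klf3KO (median SD of these clusters 0.36 against 0.16, and of all tested clusters 0.17 against 0.1), the difference is not fully independent of the choice. At the threshold 3 of the 110 clusters (2.73%) were higher in DKO, against 11 of 23410 (0.047%) in either direction and 0.0427% higher in DKO over all tested clusters. Tnks1bp1 had signals of 10.39, 9.72, 10.17 and 9.63 in DKO, against 8.78, 8.68 and 8.7 in Klf3KO arrays, a difference of 1.25 ± 0.19 (SE, limma adjusted p = 0.0255). Tcfl5 had 7.38, 6.75, 7.18 and 6.4 in DKO, against 5.77, 5.8 and 5.88 in Klf3KO arrays, a difference of 1.12 ± 0.17 (SE, limma adjusted p = 0.0265). Sult5a1 had 7.11, 6.77, 7.28 and 6.95 in DKO, against 6.25, 6.31 and 6.22 in Klf3KO arrays, a difference of 0.76 ± 0.11 (SE, limma adjusted p = 0.0182). In all 3 genes the DKO arrays lay above the Klf3KO arrays without overlap, and the Klf3KO arrays of Tcfl5 and Sult5a1 lay below or near the array medians. None of the 3 passed in the fit to DKO and Klf3KO arrays alone, nor without any 1 of the 3 Klf3KO arrays, and without DKO 3 only Sult5a1 passed. With a term for replicate number Tnks1bp1 did not pass (limma adjusted p = 0.0703), while Sult5a1 and Tcfl5 did. Without DKO 4, 16 of the 110 clusters (14.5%) passed, against 2.07% of all tested clusters.

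Counting these 3, 82 of the 110 clusters (74.5%) had a higher mean in DKO than in Klf3KO arrays, against 45.6% of all tested clusters. The median difference was 0.19, against -0.02, with a range of -0.68 (Sidt2) to 1.25 (Tnks1bp1). At an unadjusted p under 0.05, 24 clusters (21.8%) were higher in DKO, against 5.28% of all tested clusters. Lower in DKO were 2 of the 110, against 7.58% of all tested clusters. In 20 clusters (18.2%) all 4 DKO arrays lay above all 3 Klf3KO arrays, against 4.5% of all tested clusters. The 16 left-out clusters had a median of 0.22, with 13 of 16 above 0, and the 30 clusters lower in Klf3-deficient arrays a median of -0.40, with 28 of 30 below 0. Both sets met limits set on these same arrays, in which DKO spread more than Klf3KO. Their values are therefore not independent of that choice either, and are no separate support. By role, the median for DKO minus Klf3KO was highest for nuclear genes, at 0.34, and microtubule genes, at 0.29, and close to 0 for lipid metabolism, at 0.03, and actin genes, at 0.08. These differences between roles were not tested.

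**Figure D4:**
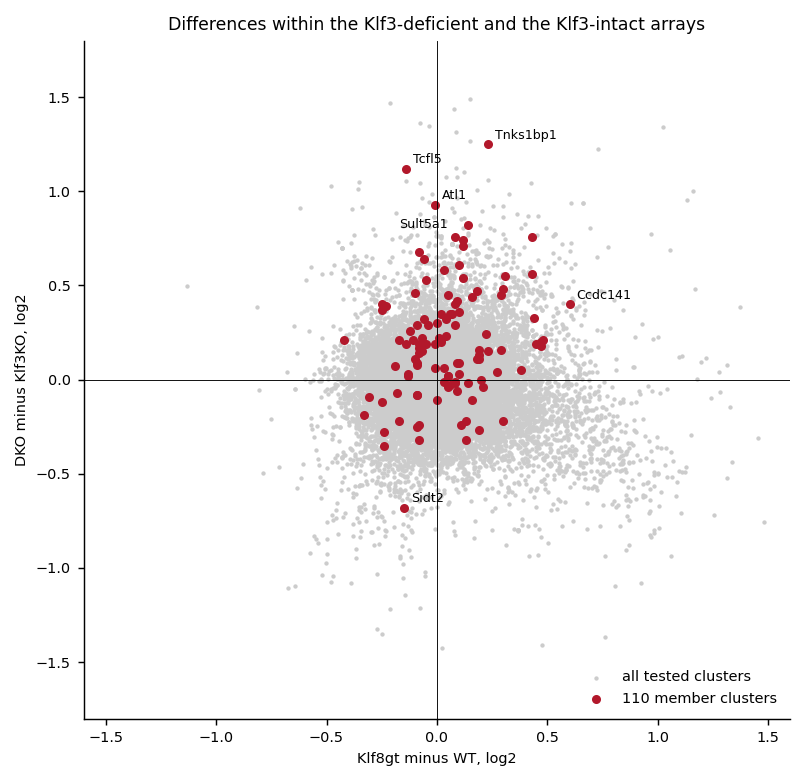
Difference between Klf8gt and WT (horizontal) and between DKO and Klf3KO (vertical), log2, for the 110 clusters (red) and all tested clusters (grey), of which 17 lie outside the axes. Of the 110, 82 lie above 0 on the vertical axis, with Tnks1bp1 and Tcfl5 highest and Sidt2 lowest, while they spread about 0 on the horizontal axis.

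Array by array, the shift rested unevenly on the DKO samples. Over the 105 genes, the mean above the Klf3-intact level was 1.54, 1.25, 1.07 and 0.87 in DKO 1 to 4, and 1.07, 1.06 and 0.83 in Klf3KO 1 to 3. It was -0.10, 0.06, 0.04 and 0.08 in Klf8gt 1 to 4 and -0.04, -0.02, -0.02 and 0.00 in WT 1 to 4. DKO 1 was the highest of the 7 Klf3-deficient arrays in 72 of the 105 genes, whereas DKO 4 was the lowest in 40 and Klf3KO 3 in 35. Without DKO 1 the median DKO minus Klf3KO difference of the 110 clusters was 0.05, and without Klf3KO 3 it was 0.09. Markers of macrophages, which accompany erythroblasts in fetal liver, moved across the same arrays. The mean signal of the 15 listed macrophage genes, all measured, was 7.40, 8.30, 8.15 and 9.07 in DKO 1 to 4 and 9.11, 9.16 and 8.64 in Klf3KO 1 to 3, against 8.98, 9.05, 8.76 and 9.32 in Klf8gt and 9.37, 9.26, 9.58 and 9.22 in WT arrays. None of these 15 listed genes was among the 105 genes, and other genes expressed in macrophages were not looked for. Of the 15, 1 lay below the array medians in every group. With that mean as a covariate the median DKO minus Klf3KO difference was -0.02, and of the 110 clusters only Capg passed, at 0.95 (limma adjusted p = 0.0491). The covariate itself differed between the groups, at 8.23 in DKO and 8.97 in Klf3KO on average, and was lowest in DKO 1. That fit therefore cannot tell macrophage RNA apart from genotype or from this array. The part of macrophage RNA in these differences was not tested. The 10 listed mesenchymal and stellate genes had a median DKO minus Klf3KO difference of 0.52, with array means of 8.46 to 8.91 in DKO, against 8.18 to 8.46 in Klf3KO arrays. None of the 10 passed the test or was among the 105 genes, and their part in the differences was not tested.

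**Figure D5:**
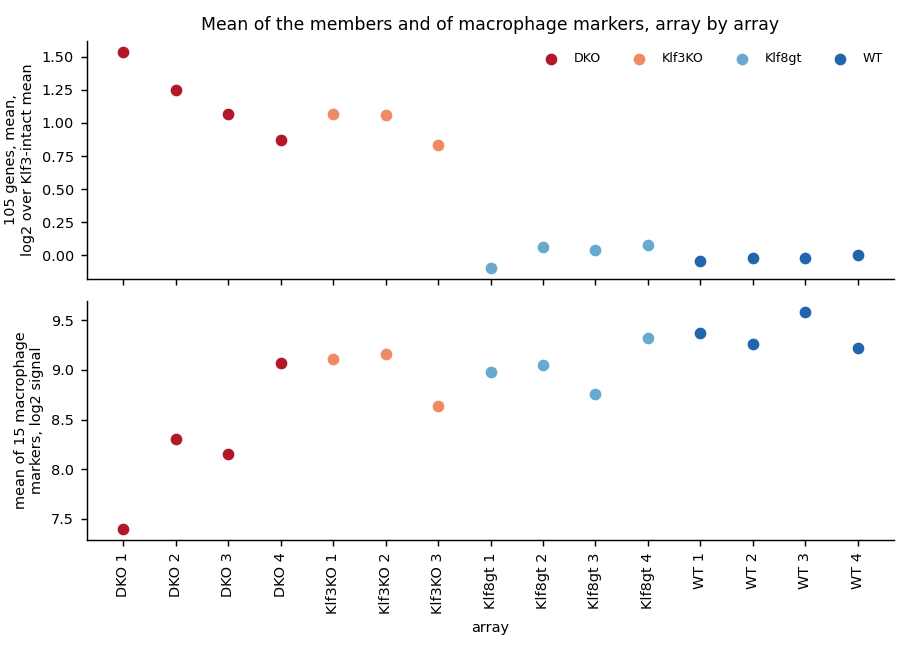
Mean of the 105 genes over their Klf3-intact level (top, log2) and mean log2 signal of 15 macrophage markers (bottom) in each of the 15 arrays, ordered DKO, Klf3KO, Klf8gt and WT. All 7 Klf3-deficient arrays stand between 0.83 and 1.54 in the upper panel, and DKO 1 is the highest there and the lowest, at 7.40, in the lower panel.

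The interaction of both genotypes, that is, the DKO minus Klf3KO difference less the Klf8gt minus WT difference, passed the threshold in 0 of the 110 clusters, against 1 of 23410 (0.00427%). At an unadjusted p under 0.05 there were 17 of the 110 (15.5%), 15 of them (13.6%) above 0, against 14.4% of all, 5.64% above 0. The estimate was above 0 in 69 of the 110 (62.7%), against 50.2% of all. The smallest p-values were those of Tcfl5, with 1.26 ± 0.23 (SE, limma adjusted p = 0.0845), Thsd7b, with 0.62 ± 0.13 (SE, limma adjusted p = 0.107), and Sult5a1, with 0.68 ± 0.15 (SE, limma adjusted p = 0.118). Without DKO 4, 8 of the 110 clusters (7.27%) passed, against 1.65% of all tested clusters, and without Klf8gt 1, 4 (3.64%), against 3.07%.

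Sex differed between the groups. In the 3 male Klf3-deficient arrays against the 6 male Klf3-intact arrays, the median difference of the 110 clusters was 1.09, with a range of 0.55 to 2.67. The choice of genes fixes the direction of these values. The X-linked Shroom2, Acot9, Plp2, Smim9 and Msn differed by 1.72, 1.02, 0.93, 1.02 and 0.67 between these male arrays. A term for sex changed none of the 3 calls between DKO and Klf3KO.

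Related regulators were not among the genes. Of 17 measured Kruppel-like factor genes, only Klf3 and Klf8, both left out by the rule, met its limits, and 1 passed the test between DKO and Klf3KO, which was Klf8 at -1.42 (limma adjusted p = 0.0265). Of 11 measured KLF3 corepressors and partners 0 met the limits and 0 passed that test, and their median difference between Klf3-deficient and Klf3-intact arrays was 0.06. Among 12 measured erythroid genes that KLF1 is known to activate, Cd59a alone met the limits, and the list's median difference was -0.01.

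Along the genome the genes were mostly scattered. Neighbouring pairs in the RefSeq gene order were Setd4 and Cbr1 on chromosome 16 (differences 2.02 and 2.05), Fam114a2 and Mfap3 on chromosome 11 (1.53 and 1.12) and the paralogs Cd59b and Cd59a on chromosome 2 (1.09 and 1.27). Gcnt1 lies beside the left-out Prune2 on chromosome 19 (0.81 and 2.47), and Ube2j1 beside the left-out Rragd on chromosome 4 (0.71 and 3.94). Of 184 measured neighbours that are not among the 105 genes, 3 (1.63%) were higher in all Klf3-deficient than in all Klf3-intact arrays, against 0.898% of all measured genes. Of these 3, 2 are the left-out Prune2 and Rragd. The share of all measured genes includes the 105 genes themselves, so the shares are not alike and show no excess among neighbours. The neighbours' median difference was 0.03. Chromosome 9 held 11 of the 105 genes (10.5%), against 5.87% of the genes measured, and chromosome 5, which carries Klf3, held 5 (4.76%), against 5.74%. No test of these shares was made.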

How the data were processed

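Affymetrix arrays of 15 samples were analysed, grouped by the genotype in the labels. The authors deposited 1 table of log2 signals per transcript cluster and array. Per the submitters' processing notes the tools were RMA and Partek, with no version or genome build given. Values were used as deposited. Symbols came from the platform annotation and promoters from RefSeq on GRCm38.p6.

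A linear model with a mean for each genotype used all 15 arrays (limma 3.58.1, R 4.3.3, eBayes without trend, prior degrees of freedom 4.27) over 23410 clusters with a symbol, and p-values were adjusted by Benjamini-Hochberg with a threshold of 0.05. The procedure was also run on simulated data. There each cluster had the same spread in all groups, unlike the DKO and Klf3KO arrays, so that run does not bear on their unequal spread. The genes and lists were chosen with earlier results of these data known. Every gene is named once by role. Values per array are given for the 12 largest differences, and group means or test results for genes past a threshold (or the 3 smallest p-values), near the limit, with several clusters, or brightest and dimmest. Group means of further genes were given as examples chosen after their values were seen. Alternatives covered filters, normalization, single arrays, sex, macrophage signal and a replicate block. The number of arrays limits the precision.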

Additional observations from a re-analysis of the deposited data

Results flagged for a closer look

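Within groups of 4 arrays, 81 groups of the genes described with full values were examined for an array far from the other 3, and 7 were found, where chance gives about 1 in 20 groups. For Sidt2 the signal was 9.69 in DKO 3, against 11.09 in the nearest DKO array. Capg was 9.67 in DKO 4, against 9.22 in the nearest, and Thsd7b was 6.34 in DKO 4, against 6.61. In Klf8gt 1, 4930402H24Rik was 7.45, against 8.17 in the nearest Klf8gt array, and Pdlim1 was 8.29, against 9.23. Tmsb10 was 11.46 in WT 4, against 11.02 in the nearest WT array, and 9530077C05Rik was 6.07 in WT 3, against 6.14. Of these 7 values, 3 were in DKO, 2 in Klf8gt and 2 in WT arrays.

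Clusters without a usable gene name also met both limits. There were 12 without a symbol, with differences between Klf3-deficient and Klf3-intact arrays of 0.75 to 2.48 (median 1.28), and 7 with several symbols, with 0.63 to 1.62 (median 0.78). None of these was counted among the 110 clusters. The 7 with several symbols were among the 23410 tested clusters, and the 12 without a symbol were not tested in the main fit.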

How the results depend on the processing

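Few arrays per group and 2 arrays that stood apart, DKO 1 and Klf8gt 1, limit these results. Of the 110 clusters, 0 to 7 passed between Klf8gt and WT when single arrays were left out, 0 to 16 between DKO and Klf3KO, and 0 to 8 for the interaction. Over all tested clusters the ranges were 0 to 1683, 1 to 484 and 0 to 718. Without both arrays, 11 of the 110 passed between Klf8gt and WT, a smaller share than the 12.5% (2917) of all tested clusters. Between DKO and Klf3KO, 4 of the 110 (3.64%) passed, against 0.692% (162) of all. Of these 4, Frrs1 was lower in DKO, at -0.49. For the interaction, 6 of the 110 (5.45%) passed, against 3.19% (746) of all. With macrophage signal as a covariate, 243, 3 and 0 of all clusters passed, 1 of the 110 passed between DKO and Klf3KO, and the median Klf8gt minus WT difference was -0.04. Testing all clusters of the table left 1 of the 110 and 6 of all between DKO and Klf3KO, and 0 for the interaction. Leaving out dim clusters removed Sult5a1 and Tcfl5 from the test and left 1 call, Tnks1bp1, among 96 clusters, and the groups of the contrast alone left 0 of the 110 and 0 of all. A sex term left 0 interaction calls. Why these counts moved was not tested.

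Sult5a1 passed between DKO and Klf3KO in 18 of 23 alternatives (limma adjusted p 0.00475 to 0.389), Tnks1bp1 in 16 of 24 (0.00423 to 0.261) and Tcfl5 in 16 of 23 (0.00119 to 0.473), always higher in DKO. The median DKO minus Klf3KO difference of the 110 was 0.05 to 0.23 when single arrays were left out. Same-numbered DKO and Klf3KO arrays deviated together with correlations of only 0.071 to 0.158, and Klf8gt and WT arrays with -0.276 to 0.128, so the numbers do not pair the samples of these comparisons. Those of DKO and Klf8gt arrays deviated together with 0.114 to 0.534. The highest value was that of DKO 1 with Klf8gt 1, the 2 arrays that stood apart. These groups were not compared directly, but both enter the interaction and the choice of genes. With the replicate block, 2 of the 110 passed between DKO and Klf3KO, where Tnks1bp1 had an adjusted p of 0.0703, and for the interaction 0 of the 110 and 13 of all clusters passed.

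The choice of clusters gave 104 to 128 when single arrays were left out, with median differences of 0.96 to 1.01 for the genes chosen. It gave 131 with a limit of 0.5, 79 with 0.8, 113 after quantile normalization (106 of them shared) and 96 without dim clusters.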
